A study of Mus musculus with 33 samples.

Results

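The 10 genes described here encode the class I major histocompatibility complex (MHC) of the mouse and the transporter that supplies it with peptide. They are the classical heavy chains H2-K1 and H2-D1, the light chain B2m, the non-classical heavy chains H2-Q4, H2-Q6, H2-Q7, H2-T22 and H2-T23, and the transporter subunits Tap1 and Tap2. Members were chosen by symbol, and each of the 10 matched 1 of the 53465 Ensembl gene rows of the count table. The set was picked with results of these data in view, because H2-Q6 was higher in cancer in 3 of the sorted gates, so the values of cancer against naive mice are given for the members as a description with no test. All 10 members passed the low-count filter of the tests (14861 genes).

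Regulatory T cells (Treg, CD4+ T cells that restrain immune responses) were sorted from the colon of Foxp3-yfp B6 mice, which carry a fluorescent reporter of Foxp3, the Treg lineage factor. The study asks about TSLP and IL-33, 2 epithelial cytokines, in Treg during colorectal cancer, and cells were separated by their receptors TSLPR (gene Crlf2) and ST2 (gene Il1rl1) into 4 gates: TSLPR-ST2- without either receptor, TSLPR-ST2+, then TSLPR+ST2-, and TSLPR+ST2+ with both. Values over the 4 gates follow this order. Each gate was taken from 4 naive mice (mice 1 to 4) and from 4 mice with colitis-associated cancer (mice 5 to 8), which makes 32 Treg libraries in 8 groups of 4. Cancer mice had received 1 injection of azoxymethane (10 mg/kg), a colon carcinogen, and 3 cycles of dextran sodium sulfate, a gut irritant given for 7 days per cycle, and were taken 2 weeks after the last course. No group had either chemical alone, so tumours, past colitis and the chemicals cannot be told apart. A mock treatment of the naive mice is not mentioned in the labels, and the 7 to 12 weeks of age stated for purchased mice are not tied to single animals. Each library comes from 200 sorted cells and was read as 58-base single reads. 1 further library holds naive CD44low Foxp3-negative T cells of the same genotype.

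Class I molecules sit on nearly all nucleated cells and show fragments of the cell's own proteins to CD8+ T cells. The heavy chain folds around the light chain in the endoplasmic reticulum, receives a peptide pumped in by the Tap1 and Tap2 dimer, and travels to the surface. Classical chains vary widely between strains. The Q, T and M regions of the locus hold non-classical chains that vary less, are often present as near-identical copies, and in several cases bind receptors of natural killer and gamma-delta T cells or of intraepithelial lymphocytes in the gut. Interferons, NF-kappa B and the coactivator Nlrc5 raise transcription of the whole set.

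The promoters of the heavy chain genes show the regulatory letters they share, and are printed here for the classical H2-K1 and the 3 Q region members, as the 200 bases before the gene start, 5′ to 3′ on the gene's strand, from RefSeq on GRCm38.p6. Capitals mark GGGGATTCCC or its longer form GGGGATTCCCC, a near-palindrome of the kind bound by NF-kappa B, the form GGGGATTTCCC with 1 more T, and TTTCACTT, the core of an interferon response element.
H2-K1 (chr17:34000348-34000547, - strand): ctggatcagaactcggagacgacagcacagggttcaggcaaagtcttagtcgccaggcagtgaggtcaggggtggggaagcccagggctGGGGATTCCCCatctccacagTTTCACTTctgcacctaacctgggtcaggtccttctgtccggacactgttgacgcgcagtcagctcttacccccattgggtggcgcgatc
H2-Q4 (chr17:35379417-35379616, + strand): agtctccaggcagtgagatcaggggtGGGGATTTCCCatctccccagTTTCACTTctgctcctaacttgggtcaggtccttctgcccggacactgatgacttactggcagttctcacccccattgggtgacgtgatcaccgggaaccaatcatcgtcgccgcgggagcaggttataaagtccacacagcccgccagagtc
H2-Q6 (chr17:35424650-35424849, + strand): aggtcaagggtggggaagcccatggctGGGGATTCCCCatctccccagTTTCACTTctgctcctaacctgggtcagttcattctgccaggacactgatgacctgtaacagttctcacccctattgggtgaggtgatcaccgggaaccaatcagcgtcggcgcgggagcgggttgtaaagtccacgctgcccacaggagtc
H2-Q7 (chr17:35438955-35439154, + strand): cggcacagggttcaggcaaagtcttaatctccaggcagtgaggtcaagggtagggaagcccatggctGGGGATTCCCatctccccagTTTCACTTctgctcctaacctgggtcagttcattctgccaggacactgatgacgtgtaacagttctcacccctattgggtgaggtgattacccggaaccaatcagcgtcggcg
Among 32851 RefSeq promoter windows of 300 bases, searched on both strands, GGGGATTCCC was in 35 (0.107%), and 4 of the 9 members with a window held it: H2-K1, H2-D1, H2-Q6 and H2-Q7. The longer GGGGATTCCCC, which contains it, was in 10 windows (0.0304%), among them those of H2-K1, H2-D1 and H2-Q6. H2-Q7 had the shorter letters only, and H2-Q4 had GGGGATTTCCC, which was in 8 windows (0.0244%). TTTCACTT was in 526 windows (1.60%) and in those of 6 of 9 members, H2-K1, H2-D1, H2-Q4, H2-Q6, H2-Q7 and H2-T22. The B2m window held GGGACTTTCC, another kappa B form found in 51 windows (0.155%). GGGGATTCCC, its longer form and TTTCACTT were read from the H2-K1 window, GGGGATTTCCC from that of H2-Q4 and GGGACTTTCC from that of B2m. These 3 genes therefore hold their letters by choice. A match to these letters is a description and not a measured site.

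H2-Q6 and H2-Q7 are close copies, which bears on what a count of either means. Their coding sequences, taken from GENCODE M21 transcripts, were 95.4% identical over 981 aligned bases, with 45 differences. The 58 bases where they differ most, positions 78 to 135 of the coding sequence counted from the A of the start codon, hold 10 differences, shown in capitals.
H2-Q6: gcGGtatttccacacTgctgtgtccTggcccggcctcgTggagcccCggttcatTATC
H2-Q7: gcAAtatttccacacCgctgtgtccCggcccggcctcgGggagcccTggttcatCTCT
A 58-base read from this stretch would tell the 2 genes apart, but 29.6% of the distinct 58-base windows of H2-Q6 transcripts also occur in transcripts of other genes, and 12.2% occur in those of H2-Q7. For H2-Q7 the shared part was 23%, for H2-Q4 30.0%, for H2-D1 8.88%, for H2-K1 6.52%, and for B2m no window was shared (0 of 803). H2-T22 had the largest shared part of the 10 members, 48.6%, of which 26.1% of all windows lie in A930015D03Rik when both strands are read. The strand of the counts was not stated in the labels, so reads of these overlapping genes cannot be told apart. How reads with several matches were counted is not given either, so the values of H2-Q4, H2-Q6, H2-Q7 and H2-T22 are uncertain to that extent. H2-Q8, H2-Q9 and H2-T9 were not analysed here.

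The 32 Treg libraries held 4038718 to 8839946 counts, and every member had at least 54 counts in each of them. Levels are CPM, counts scaled to a library total of 1000000 with TMM-adjusted totals. The sort genes followed the gates, with Il1rl1 at 95.6 to 309 CPM in the 16 ST2+ libraries and at most 11.0 in the 16 ST2- libraries. Crlf2 was at 25.2 to 57.2 CPM in TSLPR+ and 8.76 to 30.5 in TSLPR- libraries. In cancer mouse 5 it ran against the gates, at 30.5 CPM in the library labelled TSLPR-ST2+ and 25.2 in that labelled TSLPR+ST2+, so results that use these 2 libraries were also computed without them. Summed markers of macrophages and dendritic cells were at 151 to 3904 CPM (median 1052) in ST2- and 946 to 8067 (median 3035) in ST2+ libraries, and at 151 to 3179 (median 954) in TSLPR- and 1096 to 8067 (median 2954) in TSLPR+ libraries. By edgeR, 10 of the 14 tested were higher in ST2+ and 12 of 14 in TSLPR+ libraries, and in single groups up to 3 of the 15 listed were at 0 in all 4 libraries. Summed colon epithelial markers reached 11869 CPM in cancer mouse 7 TSLPR+ST2+ and at most 444 CPM in any other library. The mitochondrial share of counts was 0.616% to 1.28% in naive and 0.958% to 3.23% in cancer libraries, highest in cancer TSLPR+ST2+ (1.43% to 3.23%). In TSLPR-ST2- Treg it did not overlap between naive (0.800% to 1.21%) and cancer libraries (1.25% to 1.60%). Nor did it in TSLPR+ST2- (1.04% to 1.17% against 1.46% to 1.96%) or TSLPR+ST2+ Treg (0.618% to 1.24% against 1.43% to 3.23%). In the sums per mouse the share did not overlap either. With this share as covariate, cancer minus naive values in these gates and per mouse therefore cannot tell cancer status from the share. The replicates are mice, and the 4 gates of a mouse are not independent of each other, so p-values measure the spread between these libraries.

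Per kilobase of exon, B2m had the highest mean level over the 32 libraries (3546 CPM per kb), followed by H2-D1 (2083) and H2-K1 (1734). H2-Q6 (406), H2-T23 (388) and H2-Q7 (282) came next, then Tap1 (87.2), H2-T22 (82.6) and Tap2 (48.7), and H2-Q4 was last at 7.93 CPM per kb. The order of H2-Q6 and H2-Q7 rests on their annotated exon lengths (2.085 and 4.265 kb). In CPM without that scaling H2-Q7 was the higher, with means of 1201 and 846. On the same scale H2-M3, a non-classical chain that binds formylated peptides and is no member, was at 127. The 3 genes at the top and H2-Q4 kept their places in the group means of all 8 groups, while the neighbours H2-Q6 and H2-T23, and likewise Tap1 and H2-T22, overlapped over the groups and cannot be ordered. Relative spread over libraries, as the SD over the mean, was smallest for H2-K1 (6.37%) and H2-D1 (6.47%) and largest for Tap1 (30.9%) and Tap2 (33.1%).

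**Figure D1:**
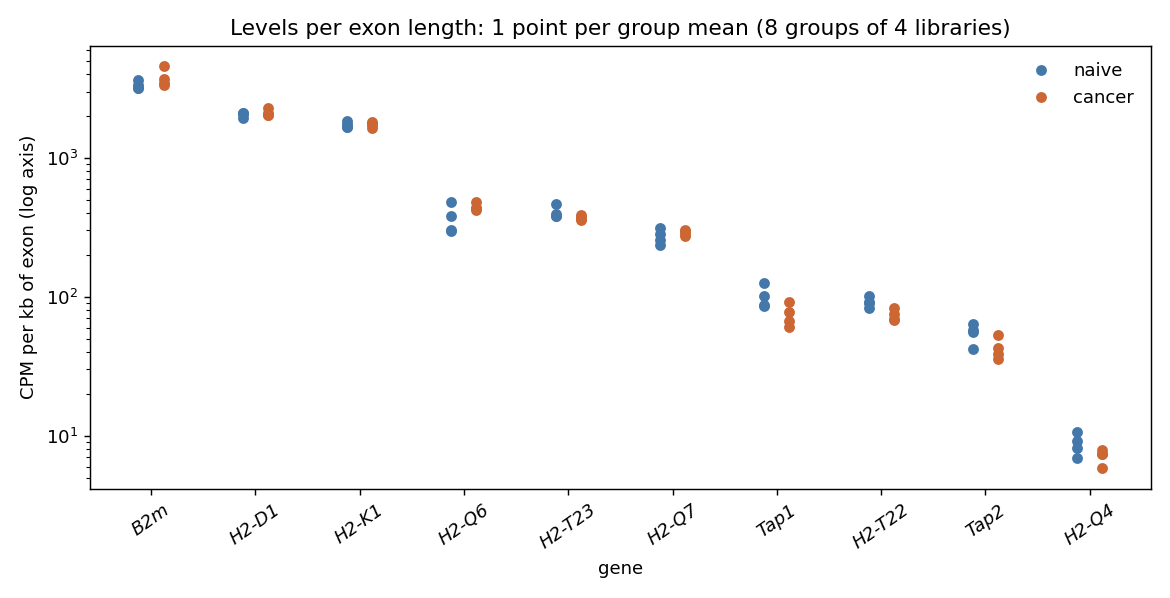
Level of each member in CPM per kilobase of exon on a log axis, 1 point for the mean of each of the 8 Treg groups (4 libraries each, naive blue, cancer orange). B2m, H2-D1 and H2-K1 lie above 1000 CPM per kb, and H2-Q4 lies at the bottom, near 7.93.

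H2-K1 (ENSMUSG00000061232, chromosome 17, 33996017 to 34000347, - strand, in GENCODE M21 on GRCm38 as for all members) and H2-D1 (ENSMUSG00000073411, chromosome 17, 35262730 to 35267499, + strand) are the classical heavy chains that present peptides to CD8+ T cells in this strain. Their levels were nearly flat over the 8 groups. H2-K1 ran from 4415 to 5722 CPM over the 32 libraries and its group means from 4798 ± 285 CPM (cancer TSLPR+ST2-) to 5443 ± 251 CPM (naive TSLPR-ST2-; SD, n = 4 each). H2-D1 ran from 4922 to 6406 CPM, with group means from 5015 ± 91.5 (naive TSLPR-ST2+) to 5887 ± 459.6 CPM (cancer TSLPR+ST2+). Between gates neither passed edgeR's quasi-likelihood test with Benjamini-Hochberg adjustment over all genes, at a limit of 0.05. The ST2+ against ST2- difference was 0.025 ± 0.029 log2 (SE) for H2-K1 (adjusted p = 0.735) and 0.038 ± 0.028 for H2-D1 (adjusted p = 0.499, edgeR). For TSLPR+ against TSLPR- the edgeR values were -0.027 (adjusted p = 0.636) and 0.052 (adjusted p = 0.244). Cancer minus naive estimates lay between -0.11 and 0.10 log2 for H2-K1 and between -0.063 and 0.12 for H2-D1 in the 4 gates. The groups overlapped except for H2-D1 in TSLPR-ST2+ Treg, where the 4 cancer libraries (5449, 5664, 5133 and 5509 CPM) all lay above the 4 naive ones (4953, 4922, 5106 and 5080.1 CPM).

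B2m (ENSMUSG00000060802, chromosome 2, 122147686 to 122153083), the light chain shared by all class I heavy chains, was higher in TSLPR+ Treg, at 3236 ± 561 CPM in TSLPR+ and 2864 ± 289 in TSLPR- libraries (n = 16 each). It was 1.12-fold higher (0.16 ± 0.054 log2), higher in 7 of 8 mice, and just passed (edgeR adjusted p = 0.0397). The call was lost in 9 of 19 alternative fits (adjusted p from 0.00693 to 1.00), among them those without mouse 1, 2, 5 or 7 and that without the 2 libraries of mouse 5 (0.14 log2, adjusted p = 0.0907). In cancer libraries alone the difference was 0.29 log2 (adjusted p = 0.0248) and in naive libraries alone 0.048 (adjusted p = 0.817, edgeR). B2m did not pass for ST2 (edgeR log2 difference 0.0014, adjusted p = 1.00). In these bulk libraries, a change in the number of cells with a transcript and a change of transcript per cell cannot be told apart. The highest B2m levels were in cancer TSLPR+ST2+ Treg, at 4445, 3602, 4407 and 3280.3 CPM in mice 5 to 8, against 2941, 3201, 2323 and 2407 CPM in naive mice 1 to 4. All 4 cancer libraries lay above the naive ones, an estimate of 0.53 ± 0.11 log2, while in the other gates cancer minus naive was 0.035, 0.078 and 0.042 with overlapping groups. With any 1 mouse left out the estimate in TSLPR+ST2+ was 0.46 to 0.62. In mouse 5, whose Crlf2 ran against the gates, the library labelled TSLPR-ST2+ held 2482 CPM of B2m. Were its 2 ST2+ labels exchanged, the TSLPR+ST2+ groups would overlap. B2m moved with the mitochondrial share, and over the 32 libraries the deviations of the 2 from their group means had a Pearson r of 0.85 (Spearman rho 0.83). With that share as a covariate the TSLPR difference was 0.076 log2 (edgeR adjusted p = 0.149) and the cancer minus naive value in TSLPR+ST2+ was -0.053. With the summed macrophage and dendritic markers as covariate the TSLPR difference was 0.014 log2 (edgeR adjusted p = 1.00).

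H2-Q6 (ENSMUSG00000073409, chromosome 17, 35424850 to 35430055, + strand), a Qa-2 family chain of the Q region, had the largest relative spread over the 32 libraries of the member heavy chains above 100 CPM (SD 18.7% of the mean). In naive mice 1 to 4 it was at 635, 613, 639.7 and 611 CPM in TSLPR-ST2- Treg. TSLPR+ST2- Treg of the same mice held 646, 679, 606 and 606 CPM. These 8 naive ST2- libraries were the lowest of the 32. Naive TSLPR-ST2+ Treg were at 815, 721, 909.8 and 735 CPM, and naive TSLPR+ST2+ Treg at 873, 1044, 1082 and 1041 CPM. So in every naive mouse both ST2+ libraries were above both ST2- libraries. None of cancer mice 5 to 8 showed that order. Their TSLPR-ST2- Treg held 901, 899, 858 and 957 CPM, TSLPR-ST2+ 1069, 890.0, 906 and 1171 CPM, and TSLPR+ST2- 955, 921, 888 and 772 CPM. Cancer TSLPR+ST2+ Treg were at 917, 981, 835 and 910.0 CPM, within the range of the other cancer gates.

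**Figure D2:**
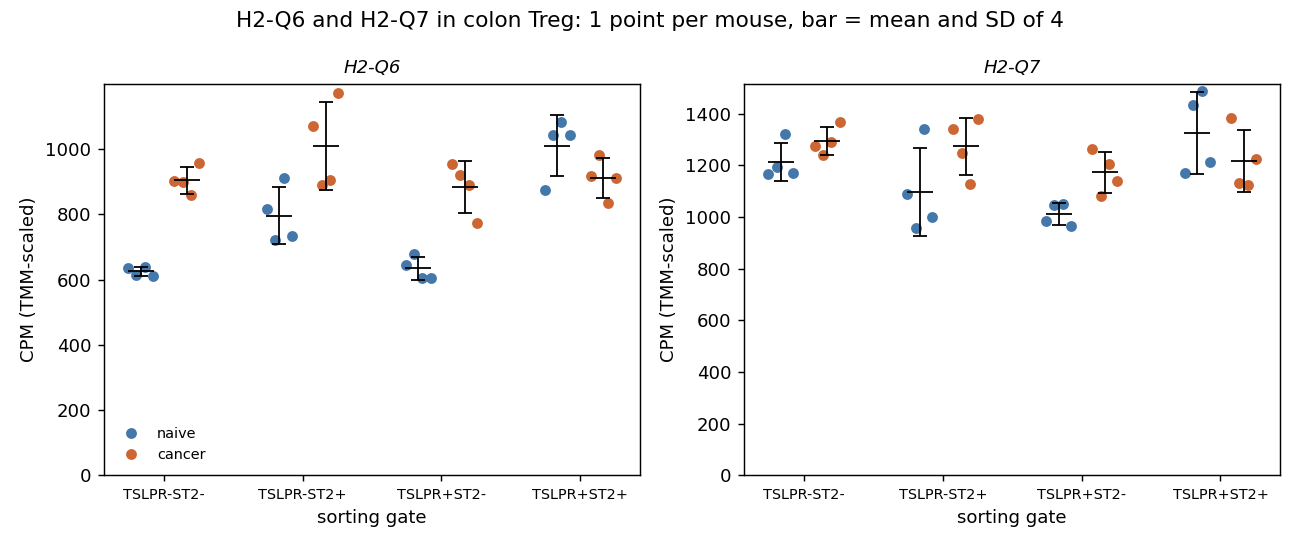
H2-Q6 (left) and H2-Q7 (right) in CPM on the vertical axis for the 4 gates on the horizontal axis, 1 point per mouse (naive blue, cancer orange) with the mean and SD of 4. Naive ST2- libraries of H2-Q6 lie at 606 to 679 CPM and cancer ST2- libraries at 772 to 957, without overlap, while the TSLPR+ST2+ groups overlap.

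Over all mice, H2-Q6 averaged 931 ± 126 CPM in ST2+ and 762 ± 144 in ST2- libraries (n = 16 each). It was the 1 member of 10 that passed for ST2, 1.24-fold higher in ST2+ Treg (0.31 ± 0.045 log2, higher in 7 of 8 mice, edgeR adjusted p = 4.57e-05), beside 6.04% of all genes tested that passed in either direction. The call held in 16 of 18 alternative fits (adjusted p from 1.02e-10 to 0.580), including that without the 2 libraries of mouse 5 (0.30 log2) and that with the mouse as a block (0.30 log2). Fitted alone, naive libraries gave 0.51 log2 and cancer libraries 0.10. The low naive ST2- values also enter the cancer contrast that chose the set, so this split by status is a description. With the macrophage and dendritic marker sum as covariate the estimate was 0.32 log2 and did not pass (edgeR adjusted p = 0.0772). H2-Q6 did not pass for TSLPR (0.047 log2, edgeR adjusted p = 0.577).

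Cancer minus naive values of H2-Q6, which chose the set, were 0.53 ± 0.089 log2 (SE) in Treg without either receptor, 0.34 ± 0.089 in TSLPR-ST2+ Treg, 0.48 ± 0.089 in TSLPR+ST2- Treg and -0.15 ± 0.089 in Treg with both receptors. Without the 2 ST2+ libraries of mouse 5 they were 0.31 in the first ST2+ gate and -0.16 in the gate with both receptors. With the mitochondrial share as covariate, whose deviations from the group means ran against those of H2-Q6 (Pearson r = -0.73, Spearman rho = -0.73, 32 libraries), the value in TSLPR+ST2+ Treg became 0.24 and that in TSLPR+ST2- 0.61. When the 4 gates of each mouse were added, naive mice held 743, 786, 843 and 786 CPM and cancer mice 968, 918, 868 and 959 CPM. The 2 sets did not overlap.

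H2-Q7 (ENSMUSG00000060550, chromosome 17, 35439155 to 35443773, + strand), the neighbouring Qa-2 chain, ran from 958 to 1488 CPM and shared part of the pattern. Naive TSLPR+ST2- Treg had the lowest group mean (985, 1045, 1052 and 967 CPM) and lay below all 4 cancer libraries of that gate (1265, 1079.8, 1207 and 1140.4 CPM). In the other gates the groups overlapped. Cancer minus naive was 0.093, 0.22, 0.21 and -0.12 log2 over the 4 gates. With the mitochondrial share as covariate, against which H2-Q7 deviations also ran (Pearson r = -0.59, Spearman rho = -0.45, 32 libraries), the last of these turned to 0.21. Neither gate difference of H2-Q7 passed (ST2 0.068, TSLPR -0.049 log2, edgeR adjusted p = 0.463 and 0.581). The ratio of H2-Q6 to H2-Q7 counts had a median of 0.518 in naive TSLPR-ST2- Treg (0.484 to 0.544) and of 0.638 in naive TSLPR+ST2- Treg. It was between 0.703 and 0.800 in the other 6 groups by their medians. In cancer TSLPR-ST2- Treg it ran from 0.664 to 0.724, above all naive values of that gate.

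H2-Q4 (ENSMUSG00000035929, chromosome 17, 35379617 to 35385290, + strand), the Qb-1 chain, is the least expressed member, at 8.35 to 31.5 CPM (54 to 216 counts). In naive TSLPR-ST2- Treg it was at 26.8, 31.5, 29.0 and 23.8 CPM and in cancer at 17.0, 19.9, 22.5 and 22.6 CPM. In TSLPR+ST2- Treg the values were 23.8, 22.1, 27.7 and 21.8 CPM in naive and 10.2, 19.2, 18.0 and 13.0 CPM in cancer mice. Cancer lay below naive without overlap in both ST2- gates, the opposite side from H2-Q6, and the groups overlapped in both ST2+ gates. Neither gate difference passed (edgeR adjusted p = 0.697 for ST2 and 0.74 for TSLPR). Since reads of these copies may be divided in ways that are not given, the 3 were also added to 1 row. The sum was 0.17 log2 higher in ST2+ Treg and passed (edgeR adjusted p = 0.0168), while for TSLPR it differed by -0.0054 log2 (adjusted p = 0.993).

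H2-T23 (ENSMUSG00000067212, chromosome 17, 36029773 to 36032855, - strand) encodes Qa-1, the chain that shows class I leader peptides to the CD94 and NKG2A receptor and is a target of regulatory CD8+ T cells. Its 32 libraries ran from 942 to 1377 CPM. The naive TSLPR-ST2- group stood apart at 1377, 1319.7, 1317 and 1327 CPM, above every other Treg library. Cancer libraries of that gate held 1089.9, 972, 982 and 1101 CPM, -0.37 ± 0.081 log2, and cancer minus naive lay between -0.069 and -0.023 in the other gates, where groups overlapped. Gate differences of H2-T23 did not pass (ST2 -0.022, TSLPR -0.044 log2, edgeR adjusted p = 0.861 and 0.551).

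H2-T22 (ENSMUSG00000056116, chromosome 17, 36037128 to 36042747, - strand) is a T region chain that does not need a bound peptide and is a known ligand of some gamma-delta T cell receptors. It was lower in TSLPR+ Treg, at 264 ± 45.8 CPM in TSLPR+ and 299 ± 41.4 in TSLPR- libraries (n = 16 each; -0.18 ± 0.060 log2, lower in 7 of 8 mice, edgeR adjusted p = 0.0427). The call was lost in 16 of 19 alternative fits (adjusted p from 0.0336 to 1.00), among them each fit that left out 1 mouse other than mouse 2. Without the 2 libraries of mouse 5 it was -0.17 log2 (adjusted p = 0.0593), and with the macrophage and dendritic marker sum -0.017 (adjusted p = 1.00, edgeR). Together B2m and H2-T22 were the 2 members of 10 that passed for TSLPR, beside 13.4% of all genes tested that passed in either direction. H2-T22 did not pass for ST2 (-0.041 log2, edgeR adjusted p = 0.805).

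Cancer minus naive of H2-T22 was below 0 in all 4 gates, -0.28, -0.27, -0.26 and -0.41 log2, though in each gate the groups overlapped. Added per mouse, H2-T22 was at 297, 316, 342 and 298 CPM in naive and 273, 251, 231 and 258 CPM in cancer mice. These did not overlap, at -0.31 ± 0.071 log2, and with the mitochondrial share as covariate the value was -0.055. That share did not overlap between naive and cancer mice either, so the value with this covariate cannot tell cancer status from the share.

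Tap1 (ENSMUSG00000037321, chromosome 17, 34187553 to 34197225, + strand) and Tap2 (ENSMUSG00000024339, chromosome 17, 34203527 to 34216321, + strand) form the pump that moves peptides into the endoplasmic reticulum. They varied most among the members. Tap1 in naive TSLPR+ST2+ Treg was at 586, 634, 959.7 and 575 CPM in mice 1 to 4, and in cancer TSLPR+ST2+ Treg at 238, 445, 326 and 467 CPM in mice 5 to 8. All 4 cancer libraries lay below the naive ones (-0.90 ± 0.22 log2, and -1.04 to -0.70 with any 1 mouse left out). In mouse 5, whose Crlf2 ran against the gates, the library labelled TSLPR-ST2+ held 615 CPM of Tap1. Were its 2 ST2+ labels exchanged, the TSLPR+ST2+ groups would overlap. Tap1 was also below naive without overlap in TSLPR+ST2- Treg (-0.49 ± 0.21 log2), where naive libraries held 422, 546, 478 and 431 CPM and cancer libraries 409, 304, 338 and 285 CPM. In TSLPR-ST2- Treg the difference was -0.41 ± 0.21 and in TSLPR-ST2+ Treg 0.082 ± 0.21, both with overlap.

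Tap2 in TSLPR+ST2+ Treg was at 209, 206, 347 and 199 CPM in naive and 117, 117, 108 and 200.4 CPM in cancer mice, -0.83 ± 0.25 log2, and the groups overlapped only by cancer mouse 8. This too holds for mouse 5 as labelled, since its library labelled TSLPR-ST2+ held 330 CPM. Tap2 did not overlap in TSLPR-ST2- Treg, where naive libraries held 185, 195, 281 and 182 CPM and cancer libraries 174, 138, 173 and 165 CPM. Naive mouse 3 was the highest naive mouse for Tap1 and Tap2 in TSLPR-ST2-, TSLPR-ST2+ and TSLPR+ST2+ Treg but not in TSLPR+ST2-. Without it, cancer minus naive in TSLPR+ST2+ Treg was -0.70 log2 for Tap1 and -0.60 for Tap2. Deviations of Tap1 and Tap2 from their group means ran against the mitochondrial share (Pearson r = -0.75 and -0.80, Spearman rho = -0.72 and -0.64, 32 libraries), and with that share as covariate the 2 values were 0.13 and 0.39. In TSLPR-ST2- Treg the same fit gave -0.056 for Tap1 and 0.042 for Tap2, and in TSLPR+ST2- Treg -0.13 and 0.32. In these gates and in TSLPR+ST2+ Treg the share itself did not overlap between naive and cancer libraries. Values with this covariate therefore cannot tell cancer status from the share. Between gates neither passed, with ST2 differences of 0.18 ± 0.11 and 0.21 ± 0.12 log2 (edgeR adjusted p = 0.382 and 0.379). TSLPR differences were -0.12 and -0.24 log2 (adjusted p = 0.524 and 0.217, edgeR).

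**Figure D3:**
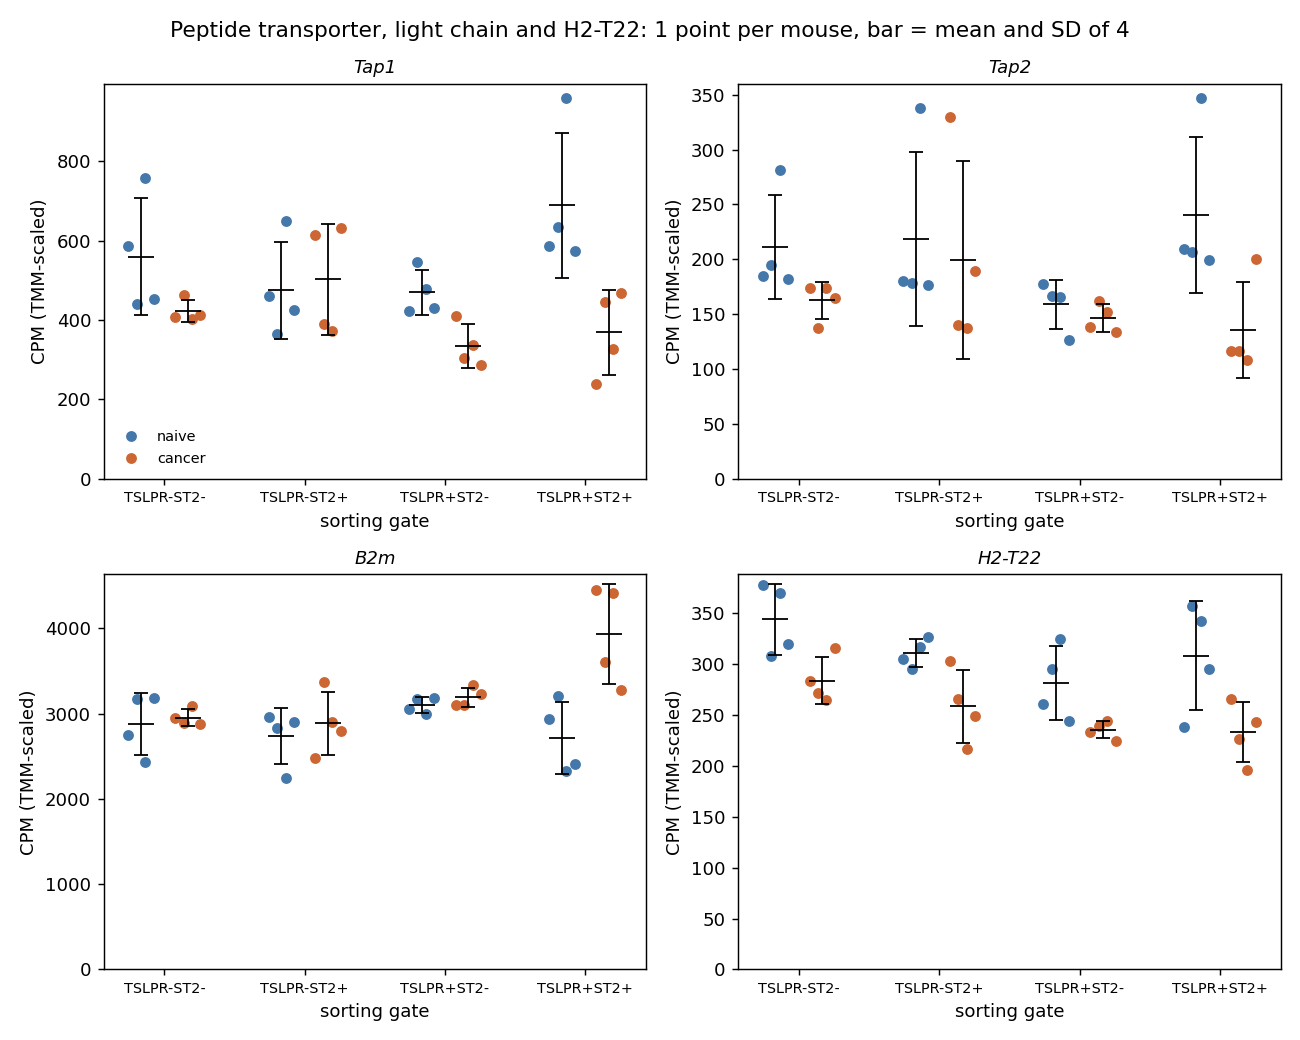
Tap1, Tap2, B2m and H2-T22 in CPM on the vertical axis by gate on the horizontal axis, 1 point per mouse (naive blue, cancer orange) with the mean and SD of 4. In TSLPR+ST2+ Treg the cancer libraries, with mouse 5 as labelled, lie below the naive ones for Tap1 (238 to 467 against 575 to 959.7 CPM) and above them for B2m (3280.3 to 4445 against 2323 to 3201).

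For ST2 1 of 10 passed as higher and none as lower, and the median of the 10 estimates was 0.032 log2, against -0.0050 over all genes tested. For TSLPR 1 passed as higher and 1 as lower, with a median of -0.047 against 0.0069. Of all genes tested 6.04% passed for ST2 and 13.4% for TSLPR, in either direction. The interaction of the 2 receptors, the ST2 difference in TSLPR+ minus that in TSLPR- Treg, was above 0 for all 10 members (median 0.16, against -0.031 over all genes, of which 47.0% were above 0). No member passed it, and 0 of the 14861 genes (0%) did by edgeR, while 1094 genes had an unadjusted p under 0.05 and DESeq2 called 103. The largest shift in units of its error was that of H2-Q7 (0.31 ± 0.093 log2, edgeR adjusted p = 0.326). H2-K1 had 0.15 ± 0.058 and H2-D1 0.13 ± 0.055 (adjusted p = 0.456 and 0.552, edgeR). The 10 estimates are not independent, since members vary together and some share reads. In cancer libraries alone the interaction was below 0 for H2-Q6 (-0.13), Tap1 (-0.12) and Tap2 (-0.42 log2). In naive libraries alone it was below 0 for B2m (-0.11).

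**Figure D4:**
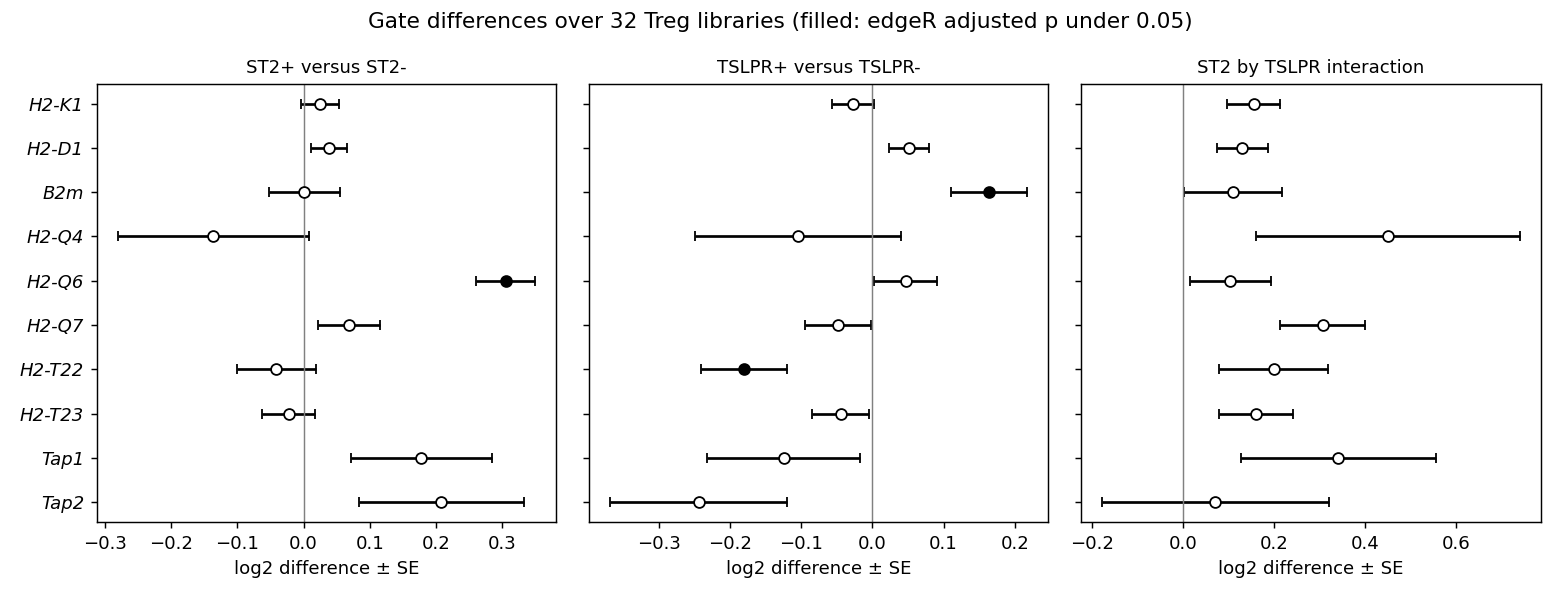
Estimated log2 difference with its SE on the horizontal axis for each member, for ST2+ against ST2- (left), TSLPR+ against TSLPR- (middle) and their interaction (right), over 32 Treg libraries; filled points passed the edgeR test. H2-Q6 alone is filled for ST2, B2m and H2-T22 for TSLPR, and all 10 interaction points lie right of 0 with none filled.

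Between cancer and naive mice, 1 of 10 members lay above and 3 below without overlap in TSLPR-ST2- Treg, where 2.35% and 2.99% of all genes did. In TSLPR-ST2+ Treg 1 lay above and 0 below (1.53% and 2.11% of all genes), and in TSLPR+ST2- Treg 2 lay above and 2 below (2.95% and 4.02%). In TSLPR+ST2+ Treg 1 lay above and 1 below (3.98% and 5.48%), and in the sums per mouse 1 above and 3 below (5.53% and 5.8%). The members were chosen on this contrast, so these counts are a description. H2-Q6 was among those above in both ST2- gates and per mouse, and B2m in TSLPR+ST2+ Treg alone. The 1 above and 1 below in TSLPR+ST2+ Treg, B2m and Tap1, hold with mouse 5 as labelled.

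**Figure D5:**
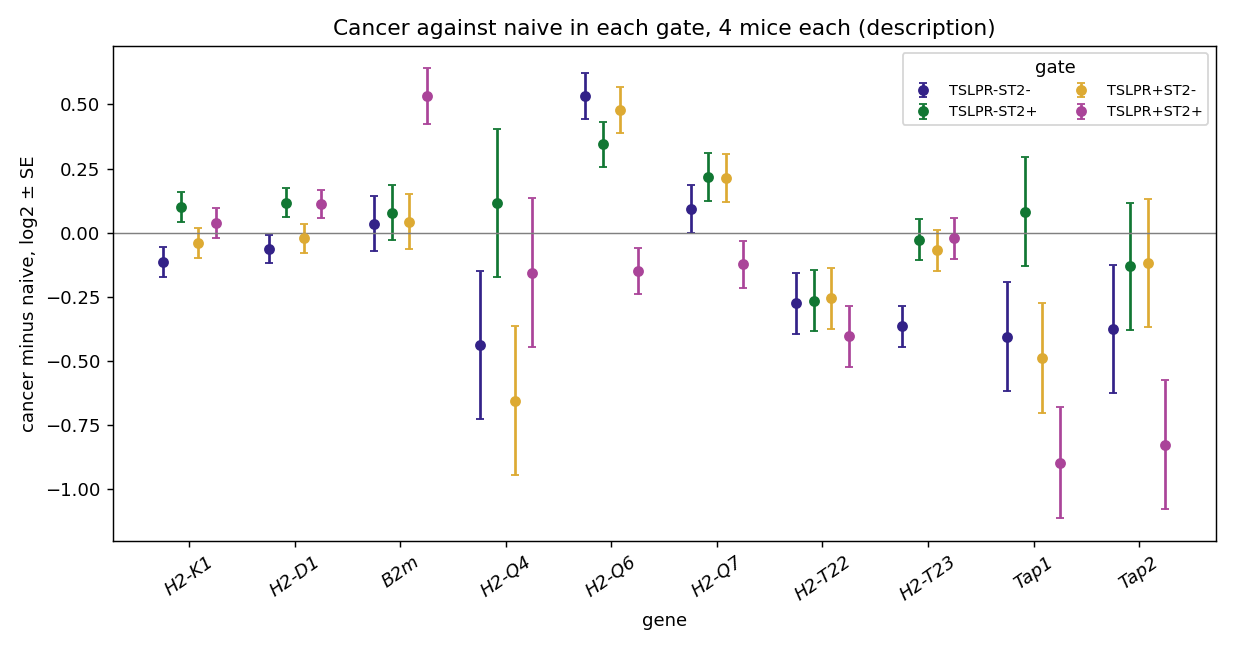
Cancer minus naive estimate in log2 with its SE on the vertical axis for each member on the horizontal axis, 1 colour per gate, 4 mice in each group. H2-Q6 lies at 0.34 to 0.53 in 3 gates and at -0.15 in TSLPR+ST2+, H2-T22 lies below 0 in all 4, and H2-K1 and H2-D1 stay between -0.11 and 0.12.

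The other genes of the pathway, 85 listed in 4 groups of which 82 had a row and 70 were tested, were read in the same fits. Of the 70, 5 passed for ST2, beside 6.04% of all genes tested, and 18 for TSLPR, beside 13.4%. Macrophage and dendritic markers were higher in the same libraries. With their sum as covariate 0 and 1 of the 70 passed. Over all 14861 genes 27 were then higher and 15 lower for ST2, and 55 and 44 for TSLPR. The part of these cells in the calls was not tested. Naive libraries alone gave 2 and 8, beside 145 higher and 58 lower of all 13324 genes for ST2 and 486 and 372 for TSLPR. Cancer libraries alone gave 1 and 3, beside 116 and 50 of all 13452 genes for ST2 and 335 and 275 for TSLPR. Among the 70, the ST2 count was 1 without mouse 5, 2 without mouse 4 or 7 and 3 without mouse 2 or 3. It was also 3 without the 2 ST2+ libraries of mouse 5. Among 23 genes of peptide supply and loading, Psmb8, an immunoproteasome subunit, was lower in ST2+ Treg (553 ± 36.0 CPM in ST2+ and 609.9 ± 33.9 in ST2- libraries, -0.14 ± 0.036 log2, lower in 8 of 8 mice, edgeR adjusted p = 0.018), and it was the only one of the 23 that passed for ST2. Psmb9, its partner subunit, did not (-0.017 log2, adjusted p = 0.938), nor did tapasin, Tapbp, which bridges the heavy chain to the transporter (0.58 log2, adjusted p = 0.0749, edgeR). In TSLPR+ Treg 4 of the 23 were higher and none lower. They were the chaperones Calr (1.29-fold, edgeR adjusted p = 3.92e-05), Hsp90b1 (1.24-fold) and Hspa5 (1.21-fold), which assist folding in the endoplasmic reticulum, and the proteasome activator subunit Psme2 (1.18-fold). Each of these 4 was higher in 8 of 8 mice. Psmb8 (0.020), Psmb9 (0.060) and Tapbp (-0.31 log2) did not pass for TSLPR (edgeR adjusted p = 0.812, 0.522 and 0.334).

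Of 27 regulators of class I transcription, 2 were higher and none lower in ST2+ Treg, beside 6.04% of all genes tested that passed. They were the kinase Jak2, which carries the interferon gamma signal (1.50-fold, higher in 8 of 8 mice, edgeR adjusted p = 0.000135), and Ifngr1, a chain of the interferon gamma receptor (1.19-fold, 7 of 8 mice). Neither passed with the macrophage and dendritic marker sum as covariate. In TSLPR+ Treg 2 were higher and 6 lower, beside 13.4% of all genes tested that passed. Nlrc5, the class I coactivator, was at 150.3 ± 29.0 CPM in TSLPR+ and 189 ± 50.5 in TSLPR- libraries (1.25-fold lower, lower in 7 of 8 mice, edgeR adjusted p = 0.0227). The other lower genes were the kinase Jak1 (1.36-fold), the interferon factors Irf9 (1.23-fold) and Irf1 (1.15-fold), the receptor chain Ifnar1 (1.29-fold) and the feedback inhibitor Socs1 (1.28-fold). The NF-kappa B subunits Relb (1.32-fold) and Nfkb1 (1.22-fold) were higher, and Nlrc5 did not pass for ST2 (-0.30 log2, edgeR adjusted p = 0.0573). Over the 27 genes the median TSLPR difference was -0.14 log2, against 0.0069 over all genes tested.

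Among 12 tested of 20 other class I and class I-like heavy chains, none passed for ST2. In TSLPR+ Treg H2-T24 was lower (1.33-fold, 8 of 8 mice, edgeR adjusted p = 0.00617), and the iron regulator Hfe and H2-Q2 were higher from low levels (4.46 ± 1.03 and 1.65 ± 0.56 log2, higher in 7 and 6 of 8 mice). Of 15 receptors in a list of those that bind class I or class I-like chains and their relatives, 8 were tested. Pirb and Lilr4b, receptors known from myeloid cells, were higher in ST2+ Treg (38.2 ± 35.7 CPM in ST2+ and 12.4 ± 14.9 in ST2- libraries for Lilr4b), and Lilr4b, Lilrb4a and Klrk1, the NKG2D receptor, in TSLPR+ Treg (4.99 ± 14.6 CPM in TSLPR+ and 0.271 ± 1.01 in TSLPR- libraries for Klrk1). These receptors were at low levels, and the macrophage and dendritic markers given above were higher on the same side of both gates. In TSLPR+ libraries 5 of 6 B and plasma cell markers (median over the 6 of 3.05 log2), 3 of 7 colon epithelial markers and Nkg7, 1 of 4 markers of CD8, NK and gamma-delta T cells, were higher as well, and in ST2+ libraries 2 of the 7 epithelial markers. The part of these cells in the receptor levels was not tested. Cd8a and Cd8b1 of this list are also markers of CD8+ T cells.

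In cancer against naive mice, no list gene passed in either ST2- gate (where 0.209% of all genes tested did in TSLPR-ST2- and 0.0471% did with TSLPR alone), and H2-T24 alone was lower in TSLPR-ST2+ Treg (58.4 ± 8.85 against 111 ± 29.9 CPM, 1.91-fold, edgeR adjusted p = 0.0405), beside 0.202% of all genes tested that passed. Leaving out any 1 mouse other than mouse 6 ended that call. In TSLPR+ST2+ Treg 2 of 70 were higher and 7 lower, beside 4.16% of all genes tested that passed. In the same comparison 4 of 7 colon epithelial markers were higher (Krt8, Krt19, Krt20 and Car1, median over the 7 of 5.84 log2), with a summed level of up to 11869 CPM in cancer mouse 7 against at most 295 in naive libraries. Among 9 Treg markers, Foxp3 (-0.77 log2) and Il2ra (-0.68) were lower and Ikzf2 (0.64) higher. The part of these cells in the list counts was not tested. Sec61a1, of the channel that moves proteins across the membrane of the endoplasmic reticulum, was at 227 ± 64.3 CPM in naive mice and 78.0 ± 21.2 in cancer (2.90-fold lower there, edgeR adjusted p = 0.00181). Tapbp was 2.69-fold lower (256 ± 43.8 against 689 ± 358 CPM, edgeR adjusted p = 0.0388). Psme3 and Calr of the same list, and Stat2, Ifnar1 and Jak1 among the regulators, were lower as well (1.33- to 2.33-fold). The promoter factor subunit Nfyb and Nfkb1 were higher (1.54- and 1.64-fold). With the mitochondrial share as covariate 0 list genes passed in this gate, beside 4 of all 14861 genes, against 618 without it. When single mice were left out, list genes that passed numbered between 1 (without naive mouse 3 or 4) and 9 (without cancer mouse 8). They were 3 or fewer also without mouse 5 or 6 and 5 without mouse 1, 2 or 7. Nlrc5 (-0.30), Psmb8 (0.086) and Psmb9 (0.085 log2) did not pass in this gate (edgeR adjusted p = 0.407, 0.576 and 0.724).

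Added per mouse, 1 list gene was higher and 3 were lower in cancer, beside 1.21% of 15338 genes tested that passed. H2-T24 was at 68.1, 58.9, 56.2 and 61.0 CPM in cancer and 101, 88.7, 113 and 86.8 CPM in naive ones, so it was lower in cancer (1.60-fold, edgeR adjusted p = 0.0282). Ifnar1 (1.42-fold) and Relb (1.42-fold) were lower and Lilr4b was higher (2.73-fold). Of 14 macrophage and dendritic markers tested in these sums, 0 were higher and 2, Cd68 and C1qb, lower (median over the 14 of -0.11 log2). Estimates were above 0 for 7 of 8 colon epithelial markers (median 4.49 log2) and 5 of 6 B and plasma cell markers (median 0.53). They were also above 0 for 3 of 4 markers of CD8, NK and gamma-delta T cells (median 0.27). None of these passed, and the part of these cells in the list calls was not tested. Nlrc5, Tapbp, Psmb8 and Psmb9 differed by -0.18, -0.63, -0.015 and 0.010 log2 and did not pass. In TSLPR-ST2- Treg these 4 genes differed by -0.26, -0.70, -0.12 and -0.083 log2, in TSLPR-ST2+ by -0.44, -0.017, -0.045 and 0.066, and in TSLPR+ST2- by 0.17, -0.48, 0.0083 and 0.026, with no call. Without 1 mouse, 3 list genes or fewer passed per mouse, and none without mouse 1, 2, 4, 6 or 8.

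Within the groups, members varied together to different degrees. Deviations of log2(CPM + 1) from the group means over the 32 libraries, which share mice and preparation, had a Pearson r of 0.75 for H2-K1 and H2-D1, 0.71 for Tap1 and Tap2 (0.56 over the 28 libraries without mouse 3) and 0.65 for H2-Q6 and H2-Q7. Tap2 and Tapbp had 0.82, and B2m ran against Tap1 (-0.75) and Tap2 (-0.74). Of 11720 genes compared, those most like H2-Q6 in this measure were AI467606 (0.79), Mtmr3 (0.78), Klhl25 (0.78), Xxylt1 (0.76) and Caprin1 (0.75). For H2-K1 they were H2-D1 (0.75), Ccdc167 (0.73), Zfp275 (0.72), Zmpste24 (0.68) and Fzr1 (0.68).

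The single CD44low Foxp3-negative library, which had 2 counts of Foxp3 in 7022068, gives a view of the set outside Treg, without replicates and so without a test. H2-Q6 was at 120 CPM there (95% exact Clopper-Pearson interval 112 to 129, counting error only), against 598 to 1158 CPM by the same plain totals in the 32 Treg libraries. H2-Q7 was also below all of them (825 against 959 to 1451 CPM), as were H2-D1 (4529 against 4927 to 6411) and, narrowly, H2-K1 (4522 against 4536 to 5673). The other 6 members lay within the Treg range. Of the 2 close copies, H2-Q6 thus lay further below the Treg range than H2-Q7.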

How the data were processed

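Gene counts per library, as deposited by the authors, were the only unit used. The reads came from SMART-Seq v4 cDNA and Nextera XT libraries, per the labels' protocols, and were counted with HTSeq 0.4.1 on GRCm38, with SAMtools 1.2, Picard 1.134 and FastQC 0.11.3, per the submitters' processing notes. Aligner and strand setting: not given in the sources used here. Totals ran from 4038718 to 8839946 counts in the Treg libraries, so counting error was small for all members except H2-Q4. Genes were kept by filterByExpr (minimum count 10, total 15), scaled by TMM and tested with edgeR 4.0.16 quasi-likelihood F-tests in 1 model of 8 group means over 32 libraries, and on sums per mouse for cancer against naive, with Benjamini-Hochberg adjustment over all genes at 0.05. The test was tried on simulated counts with 200 changed genes and 1 spread for all genes. For ST2 it recovered 17.7% of 1.25-fold changes and 97.9% of 2-fold changes, with 4 false calls. At that spread most 1.25-fold differences were missed, so a gene that did not pass may still differ. DESeq2 1.42.0 and the other fits of the closing section were alternatives. Same-numbered libraries come from the same mouse. Deviations of 48 same-mouse pairs had a mean r of 0.0099, with 3 pairs over 0.1, and the fit with the mouse as block changed no call among the members. Members, gene lists, promoters' motifs and tests were chosen with earlier results of these data known. Named genes are all members, the list genes that passed, Nlrc5, Tapbp, Psmb8 and Psmb9, and the 5 genes most like H2-Q6 and H2-K1. The library of CD44low cells was used in no test.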

Additional observations from a re-analysis of the deposited data

Results flagged for a closer look

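In 9 of the 80 combinations of a member and a Treg group, 1 of the 4 libraries stood far from the other 3, beyond Dixon's limit for 4 values. Chance gives about 1 such case in 20 groups. Tap2 of naive mouse 3 was at 281 CPM in TSLPR-ST2- Treg (other mice 182 to 195), 338 CPM in TSLPR-ST2+ (177 to 180.4) and 347 CPM in TSLPR+ST2+ (199 to 209). Tap1 of the same mouse was at 959.7 CPM in TSLPR+ST2+ Treg (575 to 634). Tap2 of cancer mouse 8 was at 200.4 CPM in TSLPR+ST2+ Treg (108 to 117), and Tap1 of cancer mouse 6 at 464 CPM in TSLPR-ST2- Treg (403 to 413). H2-Q4 was at 8.35 CPM in naive mouse 2 (20.2 to 22.1) and at 28.9 CPM in cancer mouse 5 (15.1 to 17.2), both in TSLPR-ST2+ Treg. H2-T23 of naive mouse 1 was at 1377 CPM in TSLPR-ST2- Treg (1317 to 1327).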

How the results depend on the processing

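Some settings were added after the data were seen: leaving out the 2 ST2+ libraries of mouse 5, and the macrophage and dendritic marker sum or the mitochondrial share as a covariate. With DESeq2 1 member passed for TSLPR, and list genes passed 10 times for ST2, 2 in TSLPR-ST2+ cancer Treg and 18 per mouse. Over all genes DESeq2 called 103 for the interaction, 128, 204, 87 and 1196 for cancer over the 4 gates (TSLPR-ST2- first, both receptors last), and 1148 per mouse, against 0, 31, 30, 7, 618 and 186 by edgeR. For ST2 it called 839 genes higher and 431 lower, against 550 and 347 by edgeR. For TSLPR it called 1437 and 843, against 1185 and 811. With RLE size factors 1 member passed for TSLPR. With no filter 0 members passed for TSLPR, 0 list genes for cancer in TSLPR-ST2+ Treg and 4 in TSLPR+ST2+ Treg, and 0 genes in all in TSLPR+ST2- Treg and 358 with both receptors.

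With the mouse as replicate block the interaction was called for 3 genes, none a member, and B2m turned to -0.0023 log2 for ST2. No other paired call of a member changed. In naive libraries alone 0 members passed for TSLPR, list genes numbered 2 for ST2 and 8 for TSLPR, and all genes 203 and 858. Reversed there were, for ST2, H2-K1 (-0.046), H2-D1 (-0.039) and B2m (-0.13 log2), for TSLPR H2-Q4 (0.018), H2-Q7 (0.0069) and Tap1 (0.14), and for the interaction B2m (-0.11). In cancer libraries alone 0 members passed for ST2 and 1 for TSLPR, list genes 1 and 3, and all genes 166 and 610. Reversed there were, for ST2, H2-Q4 (0.13) and H2-T23 (0.077), for TSLPR H2-Q6 (-0.083) and H2-T23 (0.037), and for the interaction H2-Q6 (-0.13), Tap1 (-0.12) and Tap2 (-0.42).

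Without the 2 libraries of mouse 5, 0 members passed for TSLPR, 3 list genes for ST2, and 3 genes in all for the interaction. With the marker sum, 0 members passed for either gate, 0 and 1 list genes for ST2 and TSLPR and 0 per mouse, and 42, 99, 0 and 42 genes in all for ST2, TSLPR, cancer in TSLPR+ST2- Treg and cancer per mouse. Reversed were, for ST2, H2-D1 (-0.0060), B2m (-0.14), H2-T22 (0.11) and H2-T23 (0.0058), and for the interaction Tap2 (-0.066). With the mitochondrial share, 1 member passed for TSLPR, H2-Q6 (0.11 log2, edgeR adjusted p = 0.0447), and list genes numbered 8 for ST2 and 0 for cancer in TSLPR-ST2+, TSLPR+ST2+ and per mouse. All genes numbered 8, 50, 4 and 0 for the interaction and cancer in TSLPR-ST2+, TSLPR+ST2+ and per mouse. For ST2 597 of all genes were then higher and 527 lower, and for TSLPR 917 and 688. Members with a cancer estimate per mouse above 0 went from 4 to 7, and for TSLPR H2-Q7 (0.0054) and Tap1 (0.046) reversed. The causes were not tested.

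Leaving out each mouse in turn gave 1 member for ST2 throughout (1 to 1) and 0 to 1 for TSLPR, and 3 to 4 members with a positive cancer estimate. List genes ranged from 1 to 6 for ST2, 12 to 17 for TSLPR, 0 to 1, 1 to 9 and 0 to 3 for cancer in TSLPR-ST2+, TSLPR+ST2+ and per mouse. All genes ranged from 459 to 783 for ST2, 1303 to 1939 for TSLPR, 0 to 2 for the interaction, 11 to 24, 4 to 37, 0 to 18 and 171 to 749 for cancer over the 4 gates, and 28 to 98 per mouse. Small differences changed sign, from -0.022 to 0.024 for B2m and -0.036 to 0.0055 for H2-T23 (ST2), -0.036 to 0.0079 for H2-K1 (TSLPR) and -0.076 to 0.27 for Tap2 (interaction). At 54 to 216 counts a library, H2-Q4 is the member that depth limits most.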
